A study of Mus musculus with 8 samples.

Results

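Genes of the nuclear pore and of transport through it were read on microarrays of whole mouse embryos at 2 stages, the 8-cell embryo and the blastocyst. This set of genes was picked with earlier results of these data known. Its members were taken by gene symbol: numbered nucleoporins (Nup genes), importins (Kpna, Kpnb and Ipo genes), exportins (Xpo genes) and the named genes Rae1, Ndc1, Aaas, Ran, Rcc1, Tnpo1, Tnpo2 and Tnpo3. This gave 47 genes of the 18193 that had a probe set (a group of short probes for 1 transcript) with a single gene symbol, and each gene was represented by its brightest probe set. Tpr, also named in the rule, was not analysed here.

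The 8-cell embryos were at embryonic day 2.5, collected 66 h after human chorionic gonadotropin (hCG, given to set the time of ovulation), and the blastocysts at day 4.5, 120 h after it. All were wild-type embryos from B6D2F1 females mated with B6D2F1 males, and all had been grown in KSOM medium from the 1-cell stage. Each stage had 4 arrays. The labels do not state whether these 4 were separate pools. The p-values therefore reflect the spread among these arrays alone, and that spread may be technical.

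Nuclear pores are the channels through which proteins and RNA pass the nuclear envelope. A coat of Y-shaped complexes and an inner ring form the frame, membrane nucleoporins anchor it, and nucleoporins rich in phenylalanine-glycine repeats fill the channel and form the filaments on the cytoplasmic side and the basket on the nuclear side. Importins carry cargo in and exportins carry it out. The small GTPase Ran gives the direction, because its exchange factor RCC1 sits on chromatin and keeps Ran loaded with GTP inside the nucleus. In the early embryo the zygotic genome takes over from proteins and RNA stored in the egg, and nuclei become smaller as cells divide.

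Signals had been scaled per array, so each difference is a relative one and says nothing of the amount per embryo. A difference is the mean log2(signal + 16) of blastocysts minus that of 8-cell embryos, given with its standard error (SE), and folds are on that scale. Signals are mean ± SD of 4 arrays. Adjusted p-values come from limma, with the Benjamini-Hochberg method over 13274 tested genes. Levels are not compared between genes, because probes differ in how well they bind. A gene was called where its adjusted p was under 0.05. The arrays read whole embryos, so fewer cells of a type and less RNA per cell cannot be told apart. Stage markers were as labelled: 6 of 6 trophectoderm genes were higher in blastocysts and 5 of 5 genes of the egg and 8-cell stage were lower. Of 5 genes of the inner cell mass and endoderm 4 were higher and 1 lower. The summed signal of 5 genes of cumulus and blood cells was 35.8 to 95.4 on the 8-cell arrays and 77.4 to 116 on the blastocyst arrays. The 3' minus 5' difference of the Actb control probe sets was 2.42 ± 0.19 log2 units on the 8-cell arrays and 0.82 ± 0.11 on the blastocyst arrays (SD, 4 arrays each). An exact permutation test, two-sided, gave p = 0.0286 (adjusted p = 0.0286 over 2 controls), and 4 against 4 arrays can go no lower. That of Gapdh was 2.32 ± 0.26 and 1.36 ± 0.11 (exact p = 0.0286). The 3' signal thus exceeded the 5' signal by more at the 8-cell stage, and the part of this in the differences below was not tested.

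With the signals as deposited, most tested members were lower in blastocysts, though not most of the pore proteins among them (10 of 21). Of the 47 members 46 passed the filter on dim genes, and 28 of these fell (60.9%), 8 rose (17.4%) and 10 did not pass. Among all tested genes 34.2% were lower and 37.5% were higher. The share called in either direction, 36 of 46, was close to the 71.7% of all tested genes, and in 35 of 46 members the 4 arrays of one stage lay wholly apart from the other 4, against 66.8% of all genes. The median difference of the members was -0.59, against 0.02 for all tested genes. Changes were of moderate size: 12 members were at least 2-fold lower (20.4% of all tested genes were) and 4 at least 2-fold higher (25.4% of all), and the differences ran from -2.02 (Xpo4) to 2.83 (Ipo9).

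How many members fell depended on the scaling. With arrays scaled to their hybridisation spike-ins the median of all tested genes moved from 0.02 to 0.37 and that of the members from -0.59 to -0.23, a shift that such scaling gives every gene alike. On that scale 8 members were higher and 13 lower, and 21.1% of all tested genes were lower. Lower genes then made up 33.2% of all calls, against 47.7% on the deposited scale. The 15 members whose fall did not pass there were Ipo11, Ipo13, Kpna2, Kpna4, Kpnb1, Nup85, Nup107, Nup133, Nup153, Nup205, Nup214, Xpo1, Xpo5, Xpo7 and Xpot. The 13 that passed on both scales were Ipo4, Ipo5, Ipo7, Kpna1, Nup43, Nup98, Nup155, Nup160, Rcc1, Tnpo1, Tnpo2, Tnpo3 and Xpo4. Averaging all probe sets of a gene, in place of its brightest, ended the calls of 8 members: Kpna6, Nup54, Nup210 and Rae1 among those that rose, and Kpnb1, Nup98, Xpo5 and Xpot among those that fell.

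**Figure D1:**
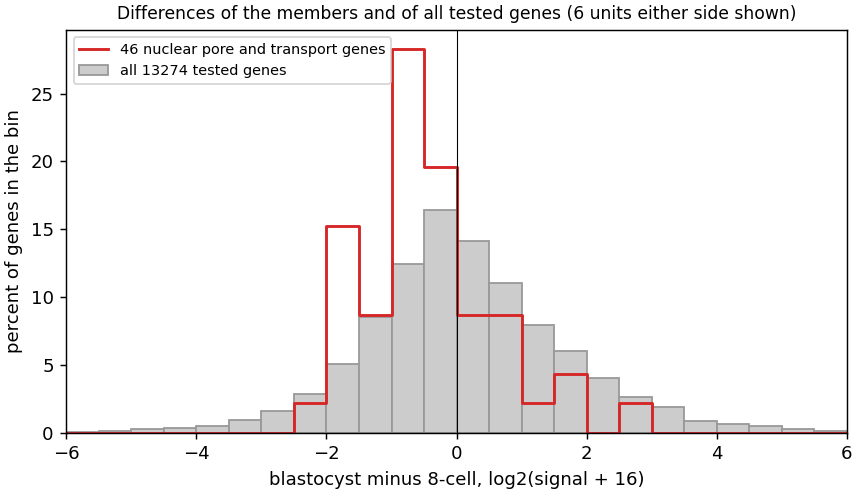
Share of genes (vertical axis, percent) by their difference between the stages (horizontal axis, blastocyst minus 8-cell, log2(signal + 16), in bins); grey bars are all 13274 tested genes and the red line the 46 tested members. The members sit to the left, with a median of -0.59 against 0.02, and reach neither end of the range of all genes.

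Promoters of 2 members that fell and 2 that rose are shown to let their letters be compared. These windows are the 250 bases before the start of transcription. The genes are the 2 lowest and the 2 highest called members with exactly 1 window in the RefSeq promoter table (build GRCm38.p6), which matched 39 of the 47 members. Xpo4 and Ipo9, with the largest fall and rise of all members, are not shown. Sequences are given 5′ to 3′ on the strand of the gene, with capitals for matches, on either strand, to the E-box CACGTG, the ETS motif CCGGAAG, the NRF1 core CGCATGCG and the GC box GGGCGG. Ipo4 lies at chr14:55635685-55635934 (minus strand), Rcc1 at chr4:132345751-132346000 (minus), Nup210 at chr6:91116827-91117076 (minus) and Nup54 at chr5:92435200-92435449 (minus).
Ipo4: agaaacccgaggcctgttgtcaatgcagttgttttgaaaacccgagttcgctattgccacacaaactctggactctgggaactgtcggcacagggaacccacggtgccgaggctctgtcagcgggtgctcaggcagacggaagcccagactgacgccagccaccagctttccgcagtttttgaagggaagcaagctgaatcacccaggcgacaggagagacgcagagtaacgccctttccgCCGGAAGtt
Rcc1: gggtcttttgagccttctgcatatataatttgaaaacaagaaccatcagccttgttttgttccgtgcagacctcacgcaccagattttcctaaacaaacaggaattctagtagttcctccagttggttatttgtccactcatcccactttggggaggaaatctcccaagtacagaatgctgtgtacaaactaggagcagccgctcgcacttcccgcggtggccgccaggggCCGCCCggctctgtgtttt
Nup210: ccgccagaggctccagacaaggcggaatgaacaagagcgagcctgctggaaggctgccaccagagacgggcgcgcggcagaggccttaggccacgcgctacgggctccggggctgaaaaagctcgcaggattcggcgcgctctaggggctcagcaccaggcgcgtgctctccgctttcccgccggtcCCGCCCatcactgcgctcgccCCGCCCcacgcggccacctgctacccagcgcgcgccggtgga
Nup54: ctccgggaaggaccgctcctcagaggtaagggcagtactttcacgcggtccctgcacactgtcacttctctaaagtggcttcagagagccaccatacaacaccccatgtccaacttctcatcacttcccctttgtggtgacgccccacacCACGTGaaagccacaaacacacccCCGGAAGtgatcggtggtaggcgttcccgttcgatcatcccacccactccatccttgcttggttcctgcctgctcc
Ipo4 held 1 ETS match next to the start, Rcc1 1 GC box, Nup210 2 GC boxes and Nup54 1 E-box and 1 ETS match, and no 2 of these overlapped. GC content was 57.2% for Ipo4, 49.6% for Rcc1, 71.2% for Nup210 and 57.2% for Nup54.

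Across the 39 members with a window, the GC box was found in 27 (69.2%), against 35.4% of 27025 genes with a window of the same length. The E-box was found in 7 members (17.9%, against 6.86% of all), the ETS motif in 7 (17.9%, against 7.83%) and the NRF1 core in 5 (12.8%, against 1.75%). Among the 5 with the NRF1 core were Nup50 and Ran, and Nup62, Nup107 and Xpo5 were the others. The median GC content of the windows was 62.8% for the members and 52.4% for all genes, and its part in these shares was not tested. By direction, the GC box was in 17 of 23 lower and 4 of 6 higher members with a window, the E-box in 3 and 1, the ETS motif in 4 and 2 and the NRF1 core in 2 and 1. A match describes the letters of the window and shows no binding.

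The counts by class that follow stand beside 34.2% lower and 37.5% higher among all tested genes. The Y complex, the outer coat of the pore, was lower in 5 of its 6 tested subunits (83.3%), and the sixth, Nup37, was higher. With spike-in scaling the falls of Nup43 and Nup160 passed, and those of Nup85, Nup107 and Nup133 did not. Nup43, a subunit at the short arm of the Y, read 3263, 2968, 3449 and 2920.3 on the 8-cell arrays and 983, 1078, 952 and 1269.8 on the blastocyst arrays. The stages were wide apart, and the gene was 2.92-fold lower (log2 difference -1.55, SE 0.13, adjusted p = 3.78e-06). Nup37 read 3536, 3089, 3323 and 3224 on the 8-cell arrays and 6240.4, 6268, 5498 and 5754 on the blastocyst arrays. Each blastocyst array lay above each 8-cell array (1.8-fold higher; log2 difference 0.85, SE 0.11, adjusted p = 7.04e-05).

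The other 4 subunits of the Y had smaller differences than Nup43. Nup107, after which the complex is often named, read 4450.1, 3850.4, 4682 and 4655 on the 8-cell arrays and 3300.2, 3090.2, 3077 and 2858 on the blastocyst arrays, again with no overlap (log2 difference -0.51, SE 0.12, adjusted p = 0.0028). Nup160 went from 4034 ± 236 to 2066 ± 76.4 (-0.96, SE 0.11), Nup133 from 8227 ± 845 to 5449 ± 457 (-0.59, SE 0.12) and Nup85 from 6520.2 ± 301 to 4757 ± 681 (-0.46, SE 0.13). Blastocyst array 1 of Nup85, at 5690.4, stood above the other 3 of its stage but below all 8-cell arrays.

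Of the 3 Y complex genes named outside the numbered nucleoporins 2 were lower. Seh1l fell from 5082 ± 266 to 1479 ± 158 (-1.77, SE 0.12) and Ahctf1, encoding ELYS, which brings the Y complex to chromatin when pores are rebuilt after mitosis, fell from 6474 ± 344 to 1094 ± 85.1 (-2.55, SE 0.11). Sec13, which also serves the coat of secretory vesicles, did not pass (0.28, SE 0.12, adjusted p = 0.0718).

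In the inner ring, 2 of 4 tested genes fell and none was called higher. Nup155 was 2.67-fold lower, from 4361 ± 534 to 1615 ± 112 (log2 difference -1.42, SE 0.13, adjusted p = 5.76e-06), and Nup205 went from 9234 ± 361 to 6544 ± 557 (-0.50, SE 0.11). Nup93, which joins the ring to the channel nucleoporins, was at 3104 ± 219 and 2739 ± 212 (adjusted p = 0.185), and Nup188 at 1006 ± 132 and 1026 ± 185 (adjusted p = 0.916). The 95% intervals of these 2 differences were -0.44 to 0.08 and -0.33 to 0.37.

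The membrane nucleoporins were split. Nup210, the glycoprotein gp210, read 111, 177, 114 and 118 on the 8-cell arrays and 501, 572, 528 and 398 on the blastocyst arrays. Its 8-cell array 2 was the highest of that stage, yet all blastocyst arrays were more than double any 8-cell array. On this probe set Nup210 was 3.56-fold higher (log2 difference 1.83, SE 0.17, adjusted p = 9e-06). Its other probe set was too dim to be tested, with means of 32.9 at the 8-cell stage and 5.86 in blastocysts. Averaging the probe sets gave 0.32 (limma adjusted p = 0.074). Ndc1, which spans the membrane and helps to insert new pores, went from 2167 ± 251 to 1773 ± 236 and did not pass (adjusted p = 0.0937). Pom121, the third membrane nucleoporin, fell from 9707 ± 1939 to 2343 ± 125 (-2.03, SE 0.15). Nup210l, a relative of Nup210, was too dim to be tested, at 26.6 ± 18.5 and 8.53 ± 2.28.

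In the central channel 1 of 2 tested genes rose and 1 did not pass. Nup62, the central channel nucleoporin, read 17326, 15923, 21671 and 14879 on the 8-cell arrays and 17623, 16421, 13776 and 14950.4 on the blastocyst arrays. The stages overlapped (log2 difference -0.14, SE 0.15, adjusted p = 0.408, 95% interval -0.48 to 0.19). Of its 4 other probe sets 3 did not pass either, and a dim one rose by 0.62 (adjusted p = 0.036). Its partner Nup54 read 929, 1194, 970.3 and 682 on the 8-cell arrays and 1548, 1494, 1842 and 1492 on the blastocyst arrays, and the 8-cell arrays, although spread widely, all lay lower (1.7-fold higher; log2 difference 0.77, SE 0.17, adjusted p = 0.00284). The third partner, Nup58, listed by the platform as Nupl1, rose from 2691 ± 42.8 to 4375 ± 347 (0.69, SE 0.11).

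On the cytoplasmic side 2 of 5 tested genes fell, 1 rose and 2 did not pass. Nup98, a nucleoporin that is found on both faces of the pore and also inside the nucleus, read 4298, 3868, 5163 and 5215 on the 8-cell arrays and 2163, 2222, 2082 and 2164 on the blastocyst arrays. All blastocyst arrays lay close together and far below the 8-cell arrays (2.12-fold lower; log2 difference -1.09, SE 0.13, adjusted p = 4.15e-05). Nup214, of the cytoplasmic filaments, went from 3608 ± 234 to 2098 ± 96.8 (-0.78, SE 0.11), while its partner Nup88 was at 4243 ± 429 and 4139 ± 235 (adjusted p = 0.823). Rae1, an mRNA export factor that binds Nup98, went the other way on its brightest probe set. It read 1576, 1607, 1653 and 1912 on the 8-cell arrays and 2668, 2559, 2568 and 2669 on the blastocyst arrays, without overlap. On this probe set Rae1 was 1.55-fold higher (log2 difference 0.63, SE 0.11, adjusted p = 0.000557). Another probe set of Nup98 was called higher (0.72), and a dim one of Rae1 was called lower (-0.86). Aaas, encoding ALADIN, was at 2238 ± 143 and 2454 ± 150 (adjusted p = 0.304).

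On their brightest probe sets the nuclear basket genes Nup153 and Nup50, whose proteins bind each other, moved in opposite directions. The other probe sets of Nup153 were not called, and with spike-in scaling its fall did not pass. Those of Nup50 gave 0.68, which was called, and -0.26, which did not pass. Nup153 read 4611, 6882, 4184 and 5706 on the 8-cell arrays and 2631, 2835, 3418 and 2715 on the blastocyst arrays. The 8-cell values were uneven, with array 2 the highest, but all stood above the blastocyst values (1.81-fold lower; log2 difference -0.86, SE 0.17, adjusted p = 0.0015). Nup50 read 2024, 1786, 1977 and 2019 on the 8-cell arrays and 3030.3, 2617, 2909 and 3343 on the blastocyst arrays, with the higher values all in blastocysts (1.52-fold higher; log2 difference 0.60, SE 0.12, adjusted p = 0.00122). Of the 21 tested pore proteins among the members 10 were lower (47.6%, against 34.2% of all tested genes) and 5 higher (23.8%, against 37.5%). Their median was -0.29. Pore proteins outside the symbol rule were not counted here.

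**Figure D2:**
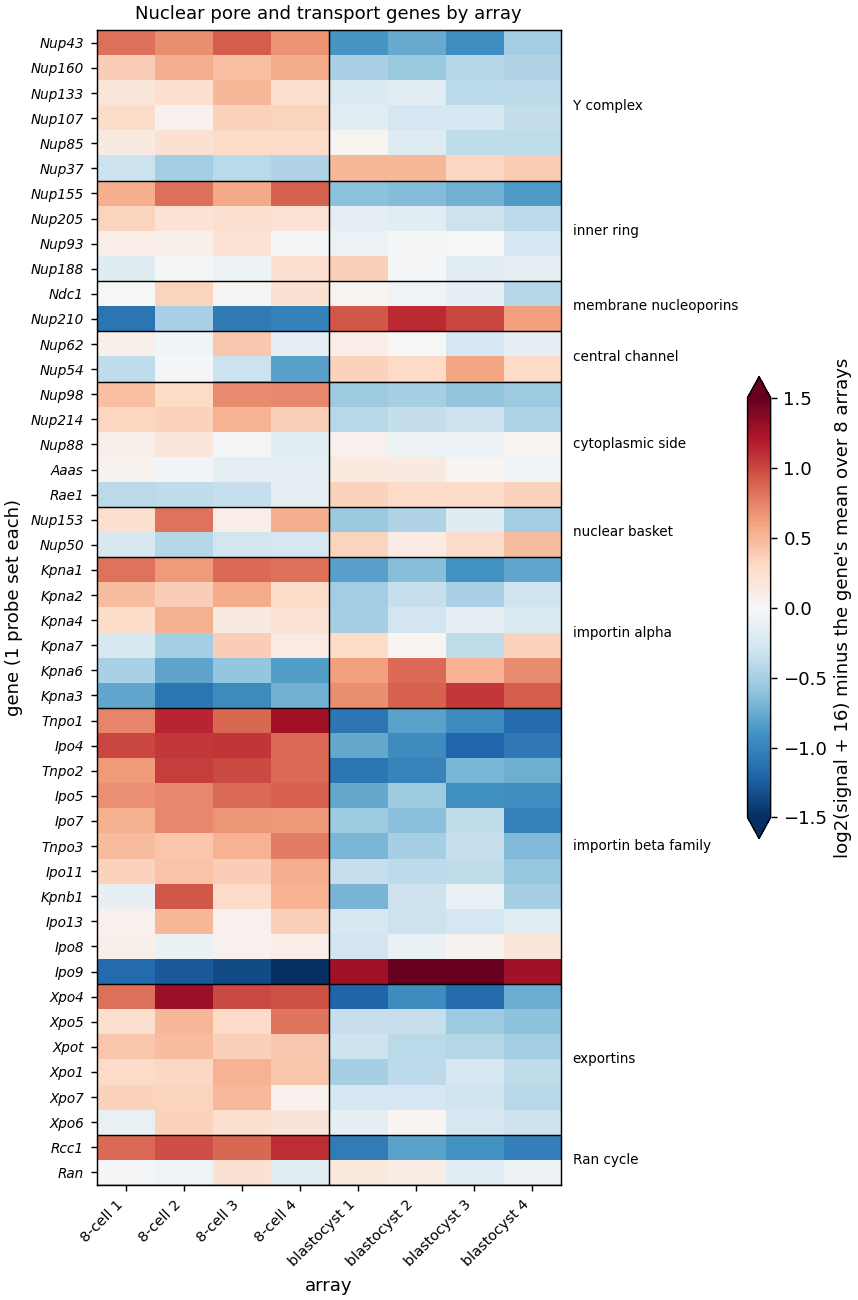
Each row is 1 of the 46 tested members, each column 1 array, and colour is log2(signal + 16) minus the mean of that gene over the 8 arrays (red above, blue below, colours capped at 1.5 units). Rows are grouped by place in the pore or role; most rows turn from red to blue at the line between the stages, and Ipo9, Nup210, Kpna3, Kpna6 and Nup37 show the reverse.

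Of 23 tested importins, exportins and transportins 17 were lower (73.9%, against 34.2% of all tested genes) and 3 higher (13%, against 37.5%), with a median of -0.82. Whether this differs from the counts of the pore proteins was not tested.

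Importin alpha proteins recognise the classical nuclear localisation signal and link cargo to importin beta. They moved in both directions: of 6 tested genes 3 fell, 2 rose and 1 did not pass. Kpna2, the family member linked to dividing cells and to early embryos, read 22372, 20997, 23859 and 19665 on the 8-cell arrays and 11294, 12797, 11616 and 13207 on the blastocyst arrays. The lowest 8-cell value was well above the highest blastocyst value (1.77-fold lower; log2 difference -0.83, SE 0.12, adjusted p = 0.000134). Kpna1 read 6263, 5541, 6432 and 6327 on the 8-cell arrays and 2017, 2287, 1897 and 2070.4 on the blastocyst arrays, a clean separation (2.96-fold lower; log2 difference -1.56, SE 0.11, adjusted p = 1.45e-06). Kpna4 went from 2658 ± 332 to 1771 ± 178 (-0.58, SE 0.13).

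Kpna3 and Kpna6 rose. Kpna3, the closest relative of Kpna4, read 509.7, 407, 449.9 and 532 on the 8-cell arrays and 1446, 1651, 1874 and 1679 on the blastocyst arrays, so every blastocyst array was above every 8-cell array (3.42-fold higher; log2 difference 1.78, SE 0.13, adjusted p = 1.78e-06). Kpna6, of the same subfamily as Kpna1, read 608, 489.9, 570 and 472 on the 8-cell arrays and 1329, 1564, 1244 and 1421 on the blastocyst arrays, again apart (2.56-fold higher; log2 difference 1.35, SE 0.13, adjusted p = 9.91e-06). Kpna7, the importin alpha of the egg, was dim at both stages and read 38.6, 29.6, 67.4 and 54.4 on the 8-cell arrays and 62.5, 49.8, 33.7 and 65.9 on the blastocyst arrays. These values overlapped and lay close to the level under which a gene was not tested (28.3 to 35.7 by array), with an adjusted p of 0.621.

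The unequal change within this family was tested on the log2 ratio of 2 genes within each array, for all 15 pairs of the 6 genes. Each gene was read on its brightest probe set alone. Another probe set of Kpna6 was called lower (-0.67), and the other 2 of Kpna3 did not pass (0.25 and -0.05). For genes already called in opposite directions a pass adds little to those calls, and pairs with Kpna7 rest on a dim signal. In 12 of 15 pairs the ratio differed between the stages (exact two-sided permutation test, adjusted p = 0.0358 over the 15 pairs). Each of the 12 had the lowest exact p this test can give (0.0286), which means only that the stages did not overlap. The 15 pairs reuse the same 6 genes and are not independent. Pairs of other genes were not tested, so the count shows nothing particular to this family. Among all tested genes, taken singly, the stages lay wholly apart in 66.8%. Kpna3 gained 2.35 log2 units on Kpna4, with an SD of 0.31 among 8-cell arrays and 0.03 among blastocyst arrays, and Kpna1 lost 2.92 units to Kpna6 (SD 0.15 and 0.03). The 3 pairs that did not pass were Kpna2 with Kpna4 (-0.25, exact permutation, adjusted p = 0.171), Kpna3 with Kpna6 (0.42, adjusted p = 0.0989) and Kpna4 with Kpna7 (-0.71, adjusted p = 0.122).

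The importin beta family, which binds cargo or importin alpha and passes the channel, was lower in 9 of 11 tested members (81.8%, against 34.2% of all tested genes). With spike-in scaling the falls of Ipo11, Ipo13 and Kpnb1 did not pass. Ipo4, an importer of histones H3 and H4, read 11488, 11924, 12032 and 10289.7 on the 8-cell arrays and 3346, 2955, 2494 and 2702 on the blastocyst arrays. No arrays of the 2 stages came near each other (3.98-fold lower; log2 difference -1.99, SE 0.13, adjusted p = 6.56e-07). Ipo5, which carries ribosomal proteins and histones, read 11593, 11861, 12903 and 13322 on the 8-cell arrays and 4223, 4965, 3776 and 3764 on the blastocyst arrays (2.98-fold lower; log2 difference -1.57, SE 0.13, adjusted p = 3.11e-06). Its lowest 8-cell array was more than double its highest blastocyst array. Ipo7, also a carrier of ribosomal proteins, fell from 16452 ± 902 to 6827 ± 1197 (-1.28, SE 0.15).

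The transportins, which carry RNA-binding proteins, fell together. Tnpo1, the receptor for hnRNP A1, read 4624, 6183, 5083 and 6675 on the 8-cell arrays and 1302, 1594, 1440.2 and 1242 on the blastocyst arrays (3.99-fold lower; log2 difference -1.99, SE 0.15, adjusted p = 1.96e-06). Tnpo2 read 962, 1269, 1225 and 1112 on the 8-cell arrays and 276, 296, 374 and 361 on the blastocyst arrays (3.38-fold lower; log2 difference -1.76, SE 0.15, adjusted p = 3.4e-06). In both genes the stages were far apart. Tnpo3, the receptor for SR splicing proteins, went from 5635 ± 636 to 2640.4 ± 295 (-1.09, SE 0.13).

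Kpnb1, the importin beta that serves the classical pathway, was less clear. It read 3698, 7699, 4913 and 5779 on the 8-cell arrays and 2485, 3254, 3756 and 2849.9 on the blastocyst arrays. The 8-cell arrays ranged widely and array 1 fell below the highest blastocyst array, so the stages overlapped although the gene was called (1.74-fold lower; log2 difference -0.80, SE 0.23, adjusted p = 0.00973). Its probe set is of a type (ID ending in _x_at) that may also bind other transcripts. Ipo11 went from 3025 ± 183 to 1679 ± 110.0 (-0.84, SE 0.11) and Ipo13, which imports some cargo and exports other, from 629.9 ± 99.5 to 439 ± 23 (-0.49, SE 0.13). Ipo8, a relative of Ipo7, did not pass (978 ± 59.9 and 933 ± 129, adjusted p = 0.631, 95% interval -0.37 to 0.22).

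Among the 11 tested members of this family Ipo9 alone was called higher. Related genes outside the symbol rule were not counted here. Ipo9, an importer of histones H2A and H2B and of actin, read 413, 385, 362 and 242 on the 8-cell arrays and 2306, 2688, 2972 and 2294 on the blastocyst arrays. The blastocyst arrays were all at least 5 times the highest 8-cell array (7.13-fold higher; log2 difference 2.83, SE 0.18, adjusted p = 5.97e-07), the largest difference among the members. The other 2 probe sets of the gene were also higher in blastocysts (2.61, SE 0.14, adjusted p = 2.23e-07; and 0.78, SE 0.14, adjusted p = 0.00085).

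Of the 6 tested exportins among the members 5 were lower (83.3%, against 34.2% of all tested genes), and the sixth had a negative difference that did not pass. With spike-in scaling the fall of Xpo4 passed, and those of Xpo1, Xpo5, Xpo7 and Xpot did not. Xpo1, also known as CRM1, which exports proteins with a leucine-rich signal, read 10912, 11103, 12814 and 11937 on the 8-cell arrays and 6332, 6794, 7501 and 6838 on the blastocyst arrays. The lowest 8-cell value was well above the highest blastocyst value, and the gene was 1.7-fold lower (log2 difference -0.77, SE 0.11, adjusted p = 0.000186). A second probe set gave -1.19. Xpo4, an exporter of the translation factor eIF5A, read 1586, 2177, 1773 and 1732 on the 8-cell arrays and 377, 452, 389.9 and 524 on the blastocyst arrays, with the largest fall of all members (4.06-fold lower; log2 difference -2.02, SE 0.15, adjusted p = 1.64e-06). Exportins of RNA fell on their brightest probe sets only: Xpo5, the carrier of microRNA precursors, from 1458 ± 272 to 757 ± 73 (-0.92, SE 0.15), and Xpot, the carrier of tRNA, from 13095 ± 402 to 7397 ± 429 (-0.82, SE 0.10). Another probe set of each was called higher (0.59 for Xpo5 and 0.48 for Xpot), so their direction differs by probe set. Xpo7 went from 8921 ± 1054 to 5767 ± 291 (-0.62, SE 0.12). Xpo6, the exporter of actin, was at 2320 ± 299 and 1834 ± 195 (-0.33, SE 0.14, adjusted p = 0.0534) and passed the threshold in 7 of 19 alternative settings.

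The Ran cycle gave a contrast between its switch and its exchange factor. Ran read 21878, 21412, 26306 and 20014 on the 8-cell arrays and 24969, 24263, 19959 and 21195 on the blastocyst arrays. The stages overlapped fully (log2 difference 0.01, SE 0.13, adjusted p = 0.933, 95% interval -0.29 to 0.31), but other probe sets of the gene were called in both directions, as described further on, and quantile scaling gave 0.25 (limma adjusted p = 0.0326). Rcc1 read 5364, 5843, 5444 and 6458 on the 8-cell arrays and 1434, 1701, 1574 and 1450.1 on the blastocyst arrays, where every 8-cell array was more than 3 times any blastocyst array (3.72-fold lower; log2 difference -1.90, SE 0.12, adjusted p = 5.35e-07). Of the other Ran partners, Ranbp1, which helps Ran give up its GTP, rose from 7588 ± 286 to 10318 ± 1681 (0.43, SE 0.14), and Rangap1, the activating protein of the Ran GTPase, did not pass (0.21, SE 0.10, adjusted p = 0.097).

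**Figure D3:**
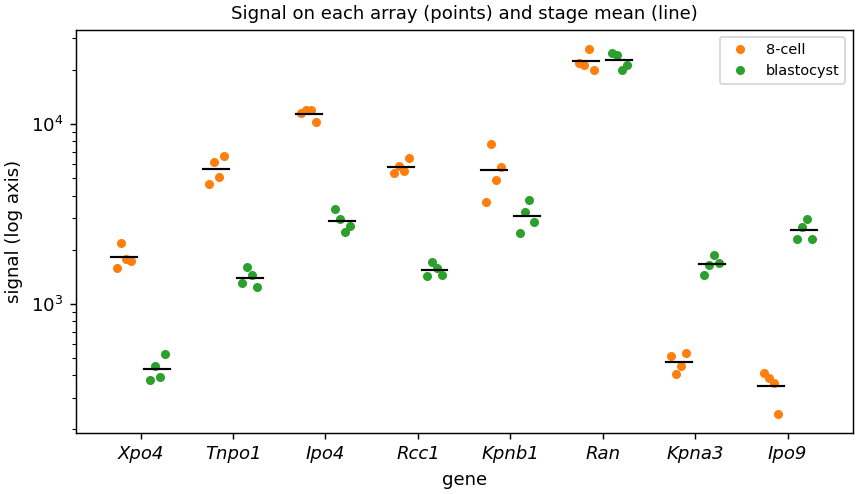
Signal on each array (points, log axis) and the mean of the stage (line) for 8 members, 8-cell in orange and blastocyst in green. Xpo4, Tnpo1, Ipo4 and Rcc1 fall without overlap, Kpnb1 overlaps, Ran stays near 22402 and 22597, and Kpna3 and Ipo9 rise.

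**Figure D4:**
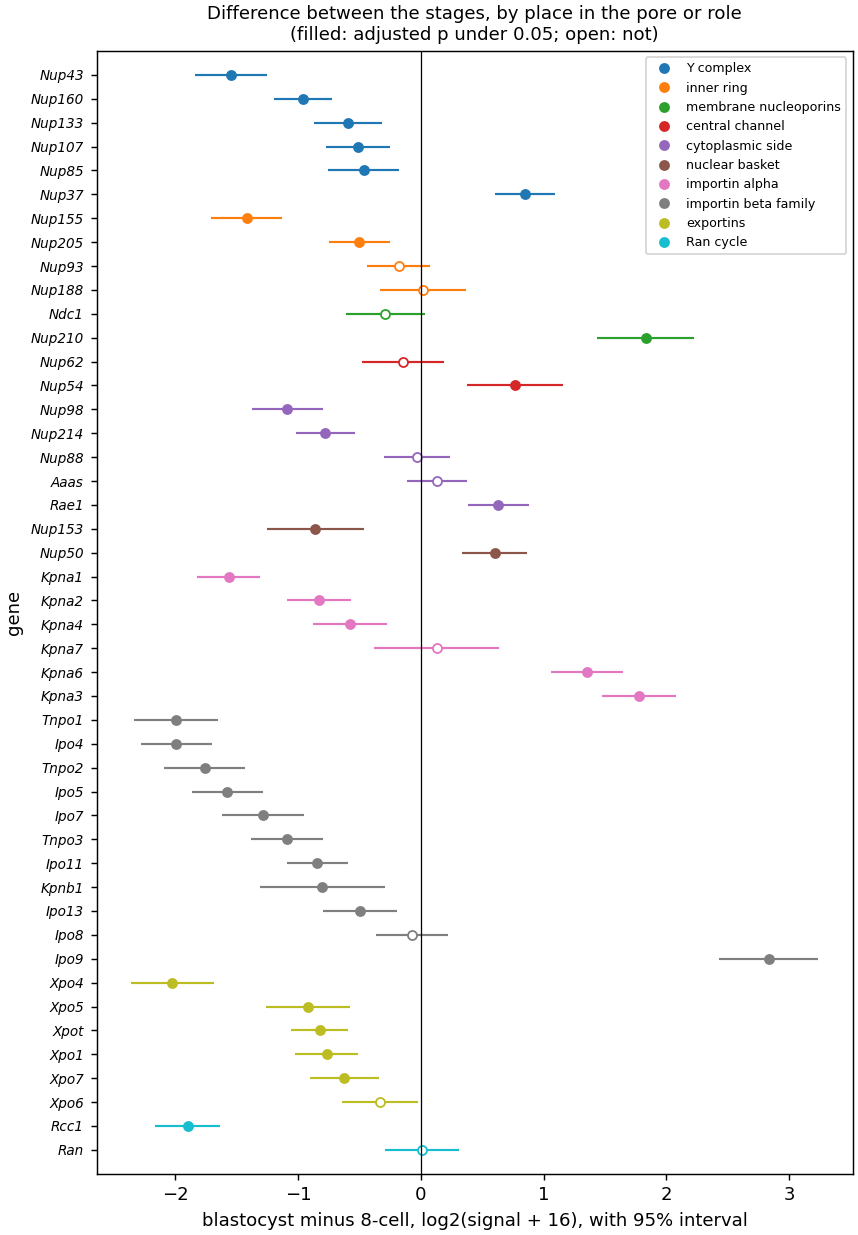
Difference between the stages (horizontal axis, blastocyst minus 8-cell, log2(signal + 16)) with its 95% interval for the 46 tested members, coloured by place in the pore or role; filled points passed an adjusted p of 0.05 and open points did not. In the importin beta family and the exportins all points but that of Ipo9 lie left of 0, while importin alpha and the pore proteins lie on both sides.

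Several genes had more than 1 probe set, and these did not always move together. The 47 members had 125 probe sets, of which 109 were tested among 28227 tested probe sets of all genes. Their p-values were adjusted over these 28227. Of the 109, 56 were lower (51.4%, against 32.8% of all tested probe sets) and 19 higher (17.4%, against 33.6%). Of the 34 genes with at least 2 tested probe sets, 13 had all of them called in 1 direction, 14 had some called in 1 direction and the others not passing, 6 had probe sets called both ways and 1 had none called. The 13 were Ipo4, Ipo5, Ipo9, Ipo11, Kpna1, Kpna4, Nup43, Nup85, Nup205, Nup214, Tnpo2, Tnpo3 and Xpo7.

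Kpna1 was the most fully covered of these, with 5 probe sets, all lower, whose differences ran from -2.85 to -1.56. Among the 6 genes called both ways was Ran: its brightest probe set gave 0.01, 3 others of the _x_at type gave -0.58, -0.36 and -0.26 (the last not passing, adjusted p = 0.0948), and the only one without that suffix rose by 1.42 (adjusted p = 4.29e-05), from 794 to 2115. The direction of Ran thus differs by probe set. Nup98 gave -1.09 on its brightest probe set and 0.72 on the other (adjusted p = 0.000711), Xpo5 -0.92 and 0.59, and Xpot -0.82 and 0.48, with 0.21 on another that did not pass.

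Among the 14 genes with some probe sets called, Nup133 was lower on 4 of 5, Xpo1, Xpo4 and Tnpo1 on 2 of 3 each, and Nup50 was higher on 2 of 3 and Nup54 on 2 of 5. Ipo7, Ipo8, Nup153 and Nup155 were each lower on 1.

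Kpna6 gave 1.35 and -0.67, both called, and Rae1 0.63 and -0.86, the latter from a dim probe set (123 to 58.1). Kpna3 rose only on its brightest probe set, and its other 2 gave 0.25 and -0.05, neither passing. Kpnb1 fell only on its _x_at probe set, and the other 3 gave 0.11, 0.25 and -0.38 with none passing. Tnpo1 gave -2.11 on a second probe set and -0.04 on another that did not pass. Ndc1, not called on its brightest probe set, was called higher on 2 others. One gave 0.83, and the other rose from a mean of 15.8, under the filter level of the 8-cell arrays, to 48.4 and has no interpretable fold. For these genes the difference given above is that of the brightest probe set, and which transcripts each probe set reads was not tested.

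**Figure D5:**
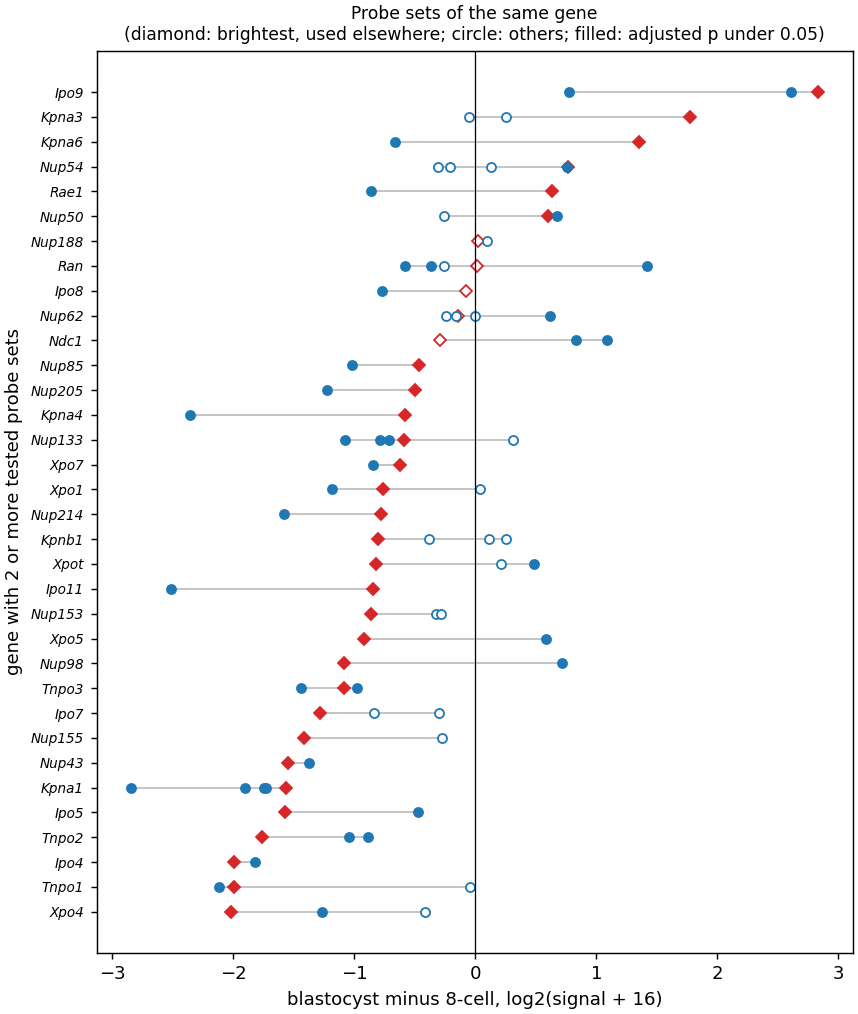
Differences between the stages (horizontal axis, log2(signal + 16)) of each tested probe set for the 34 genes with 2 or more; the red diamond is the brightest probe set and blue circles are the others, filled where the adjusted p was under 0.05. Ipo4, Tnpo2, Tnpo3, Nup43 and Kpna1 keep to 1 side of 0, while Nup98, Ran, Kpna6, Rae1, Xpo5 and Xpot cross it.

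Of 32 other listed genes of the pore, the transport cycle and the nuclear envelope, all were tested. Of these 14 were lower (43.8%, against 34.2% of all tested genes), 11 were higher (34.4%, against 37.5%) and 7 did not pass, with a median of -0.22. With spike-in scaling 7 were lower and 13 higher. Whether these counts differ from those of the members was not tested. Ahctf1, Pom121 and Seh1l are given above. Nxf1, the main receptor for mRNA export, fell from 7000.1 ± 833 to 2474 ± 146 (-1.49, SE 0.12) and Gle1 by 0.93 (SE 0.15), while Nxt1, the partner of Nxf1, rose by 0.47 (SE 0.13). The listed genes of small nuclear RNA transport fell, with Snupn at -1.56 (SE 0.16) and Phax at -0.72 (SE 0.12). Cse1l, the exporter that returns importin alpha to the cytoplasm, was at 7883 ± 726 and 7855 ± 178 (adjusted p = 0.997).

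Genes of this list named for Ran moved in both directions. Lower were Ranbp2, the large filament nucleoporin (-0.42, SE 0.15), Ranbp3 (-1.30, SE 0.15), Ranbp9 (-0.55, SE 0.18) and Ranbp10 (-2.05, SE 0.13). The stages overlapped for Ranbp2 and Ranbp9. Higher were Ranbp17 (0.58, SE 0.16), Rangrf (0.82, SE 0.15) and Ranbp1, given above. Nupl2 (1.05, SE 0.15) and Mcm3ap (0.65, SE 0.13) were also higher. Senp2, a SUMO protease found at the pore, was lower (-0.89, SE 0.18). Ddx19b, Alyref and Senp1 did not pass, with differences of -0.12, -0.25 and -0.27.

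The lamina and envelope genes of the list changed in both directions. Lmna, encoding lamins A and C, rose from 1604 ± 324 to 5263 ± 316 (1.72, SE 0.15), Lmnb1 rose from 1586 ± 202 to 3206 ± 382 (1.01, SE 0.14) and Banf1, which ties chromatin to the envelope, rose from 5012 ± 371 to 9031 ± 790.3 (0.85, SE 0.12). Lbr, the lamin B receptor, fell from 7701 ± 526 to 4249 ± 366 (-0.86, SE 0.12). The genes of the linker proteins SUN1 and SUN2 moved apart, with Sun1 at -0.63 (SE 0.13) and Sun2 at 0.75 (SE 0.15). Lmnb2 did not pass (-0.19, SE 0.13, adjusted p = 0.223).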

How the data were processed

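Messenger RNA of whole embryos was measured on 8 arrays, 4 per stage, grouped by the stage in the sample titles. Per the labels' protocols, RNA was isolated with a small-sample kit, amplified and labelled with biotin. The deposited columns hold a linear signal intensity for each of 45101 probe sets. What program produced this was not given in the sources used here. With the outer 2% at each end left out, every column averages the same. Detection calls and scan dates were not used here, and the number of arrays limits the precision.

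Values became log2(signal + 16), which understates the change of dim genes. The 64 control probe sets stayed out. No column held a sample of another series. Symbols came from the platform annotation; the 932 probe sets with several symbols and 9160 that it does not list named no gene. The brightest probe set represented a gene, and genes above the 40th percentile of an array on at least 4 arrays were tested with limma (lmFit, eBayes, no covariates). Replicate numbers paired no arrays by the rule used (correlations of deviations from -0.04 to -0.02). The method was tested on simulated data. Every member is named, and array values are given for all 8 higher members, the 8 lowest and fixed genes of each role. The members and lists were chosen with earlier results of these data known. Alternatives were quantile, median or hybridisation spike-in scaling, other filters (none or the 60th percentile), probe set choices, added constants of 1 and 64, eBayes with trend, array weights, a replicate block and leaving out each array. R 4.3.3, limma 3.58.1, the data.table package (1.17.8), Python 3.11.15 and matplotlib 3.10.9 were used.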

Additional observations from a re-analysis of the deposited data

Results flagged for a closer look

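Within the groups of 4 arrays, 3 of 94 combinations of member and stage had 1 array far from the others, with a gap to the nearest array that exceeded Dixon's 95% critical value. About 5% of such groups pass this by chance. The 3 were Nup210 in 8-cell embryos, where array 2 read 177 against 111 to 118 on the others (gap 0.871 of the range on the log2 scale), Nup214 in 8-cell embryos, where array 3 read 3956 against 3449 to 3524 (0.844), and Ipo8 in 8-cell embryos, where array 2 read 889 against 997 to 1019 (0.843). Leaving out any of these arrays changed no call of the 3 genes.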

How the results depend on the processing

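Of the 36 called members 16 kept their call in each of the 20 alternatives that tested them. With hybridisation spike-in scaling 13 members were lower in place of 28, and of the other pore and transport genes 7 were lower in place of 14 and 13 higher in place of 11. With all probe sets of a gene averaged, 5 members were higher in place of 8. In that setting 8 members lost their call, and Rae1 (-0.0094), Xpot (0.13) and Ndc1 (0.55) changed sign. Without probe sets of the _x_at, _s_at and _a_at types Kpnb1 gave 0.11 and Ran gave 1.42. Ran was also called with quantile scaling (0.25) and was not called with averaging (-0.03). Quantile and median scaling, the filters, the added constants, array weights, eBayes with trend and each left-out array removed no call, nor did the fit with the replicate block (8 higher and 28 lower). Leaving out 1 array gave 28 to 29 lower and 8 higher members. Signals near the filter level, as for Kpna7, limit what can be read. The cause of these changes was not tested.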

Other observations

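Among the probe sets, 3 carried the symbol of a member together with that of another gene and were left out of the values above. The one shared by Ipo4 and Tm9sf1 rose from 559.8 ± 55.5 to 1564 ± 87.1 (log2 difference 1.46, SE 0.13, adjusted p = 5.02e-06), while both probe sets of Ipo4 alone fell. The one shared by Kpna4 and 9630025H16Rik rose from 408 ± 51.8 to 1416 ± 158 (1.76, SE 0.15, adjusted p = 3.61e-06), while both probe sets of Kpna4 alone fell. The one shared by Xpo4 and Lats2 was at 1799.6 ± 679 and 1552 ± 416 and did not pass (-0.18, SE 0.28, adjusted p = 0.604). Which gene of each pair these signals read was not tested.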
